A study of Homo sapiens with 24 samples.

Results

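The human breast cancer line T47D was compared in 2 derivatives after the same progestin treatment: T47D-co, labelled progesterone receptor-positive, and T47D-Y, labelled as lacking the receptor. Total RNA was sequenced in 24 libraries, 3 biological replicates in each of 8 groups. The comparison rests on 6 of them, 3 T47D-co and 3 T47D-Y libraries given water for 18 hours and the synthetic progestin R5020 (promegestone, 10 nM) for 6 hours. The matching 3 T47D-co and 3 T47D-Y libraries given water for 18 hours and the vehicle ethanol (EtOH) for 6 hours set the line difference without progestin. The other 12 libraries had the same lines and the same R5020 or EtOH, with interferon-alpha (IFN, 20 IU/ml for 18 hours) in place of water. All cells grew in medium with 5% serum and insulin at 6 ng/ml, so EtOH libraries were not free of serum hormones. Every gene was taken, 20159 tested entries (genes, or loci merged under 1 name) of the 25541 in the deposited table. Within each contrast the 2 lines differ in more than the receptor, so an effect of the receptor and any other difference between the sublines cannot be told apart.

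The progesterone receptor is a transcription factor of the nuclear receptor family. Bound to a progestin it enters or stays in the nucleus, binds palindromic DNA elements that it shares with the glucocorticoid receptor, and changes the transcription of nearby genes through coregulators. In luminal breast cancer cells it is itself a product of oestrogen receptor signalling, and its activation is known for induction of genes such as FKBP5, ZBTB16 and SGK1, for a transient entry into the cell cycle and for the appearance of a small population of cells with the basal keratin KRT5. T47D-Y is known as a subclone of T47D-co that was selected for loss of the receptor, so each line stands for 1 cell population.

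Levels are scaled fragments, the estimated fragments of a gene divided by a size factor that puts all 24 libraries on 1 scale, and are not corrected for gene length. Group levels are means ± SD over 3 libraries, and differences are limma estimates ± SE of log2(scaled fragments + 1), which understate the change of genes near 0. Calls use a threshold of 0.05 on limma's two-sided p, adjusted by Benjamini-Hochberg over all 20159 entries. With R5020, 13815 entries (68.5%) were called between T47D-co and T47D-Y, 6442 higher (32%) and 7373 lower (36.6%) in T47D-co. Of these, 5194 (25.8% of the tested) differed at least 2-fold, 1974 higher and 3220 lower, and 996 at least 8-fold, 345 higher and 651 lower.

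With EtOH, 12732 entries (63.2%) were called between the same lines. The size of the line difference had a median of 0.496 with R5020 and 0.404 with EtOH, both on the log2 scale over all tested entries. Whether a line difference moved with R5020 was tested by the interaction, the line difference with R5020 minus the line difference with EtOH, and 8989 entries (44.6%) were called, 4352 positive (21.6%) and 4637 negative (23%). R5020 itself changed 11396 entries (56.5%) in T47D-co and 44 (0.218%) in T47D-Y. Among the 8989 called interactions R5020 was called in T47D-co alone for 8800, in both lines for 41, in neither for 148 and in T47D-Y alone for 0. The test for T47D-Y gave 848 entries at an unadjusted p under 0.05. That is less than the share of 0.05 which this threshold passes when nothing changes. Nearly every line difference that moved thus came with a called R5020 response of T47D-co, although a missed threshold does not show that T47D-Y did not respond.

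From these calls each entry was placed in a class, and every class but the last needed a called interaction. Line differences called with R5020 and not with EtOH were named opened, and there were 2129 (10.6%). Those called under both conditions in the same direction, and larger with R5020, were named widened, with 2534 (12.6%), and those smaller with R5020 narrowed, with 1439 (7.14%). Those called with EtOH and not with R5020 were named closed, with 1341 (6.65%), which does not show that the lines were then equal. Those called in opposite directions were named reversed, with 1466 (7.27%). A further 4924 (24.4%) were called under both conditions in the same direction with no called interaction and were named kept. Without a called interaction, 1323 entries were called with R5020 alone and 1028 with EtOH alone, and they belong to no class.

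**Figure D1:**
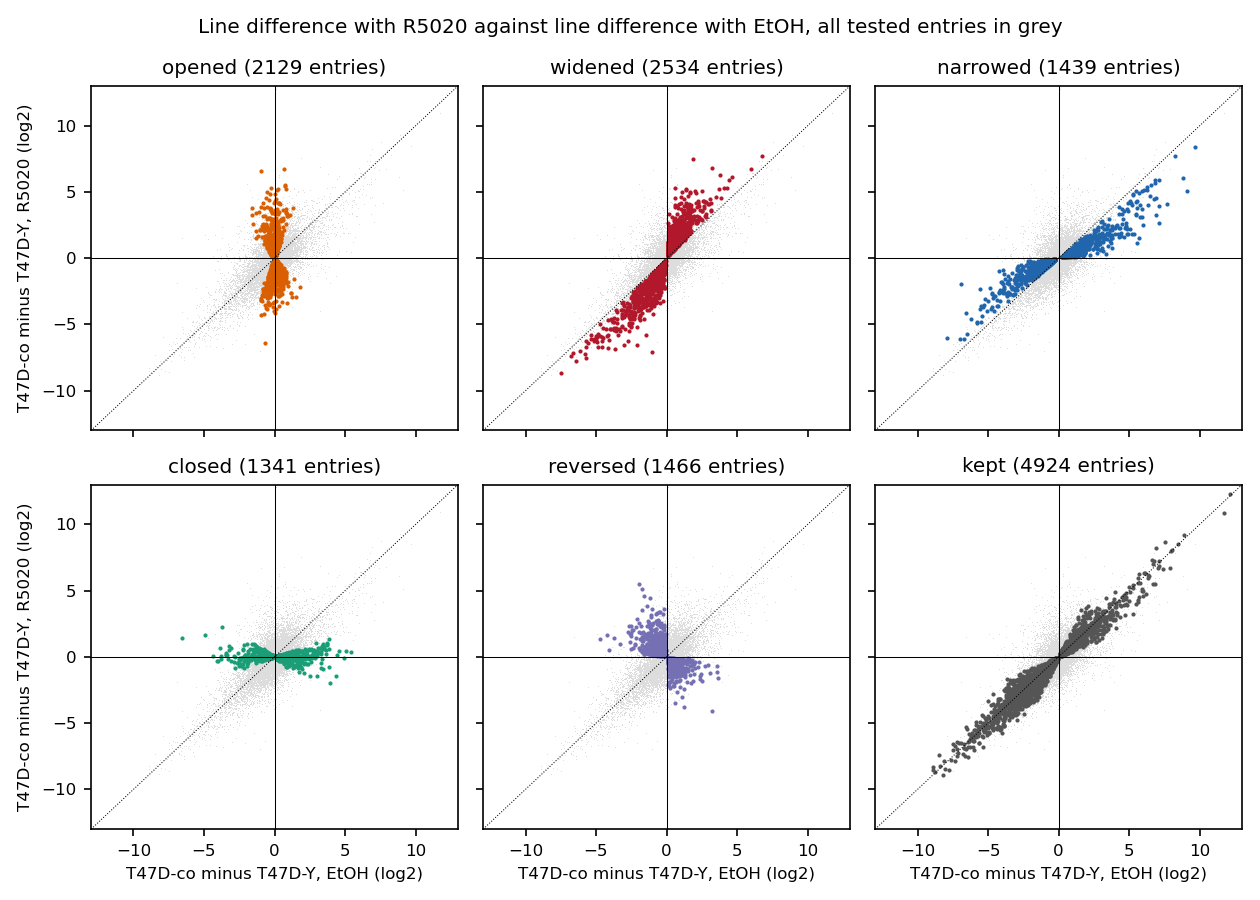
Line difference with R5020 (vertical axis, T47D-co minus T47D-Y, log2) against the line difference with EtOH (horizontal axis, log2), 1 panel per class with its entries in colour and all tested entries in grey. The 4924 kept entries follow the dotted line of equal differences, the 2129 opened ones stand along the vertical axis, the 1341 closed ones lie along the horizontal axis, and the 1466 reversed ones fill the quadrants of opposite sign. Along both axes points are estimates from 3 libraries per group.

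The 6 libraries held 15542620 to 33607481 estimated fragments, and replicates of a group correlated at 0.983 to 0.988 across genes. The deposited values had been scaled separately in 4 blocks of 6 libraries. On that deposited scale 31.4% of the called differences with R5020 were higher in T47D-co, against 46.6% on the common scale, and the median difference over all entries lay at -0.26 against -0.05. Quantile normalization gave 50.4% and upper-quartile factors 41.7%. In T47D-Y with R5020 replicates 1 and 2, T47D-Y with EtOH replicate 1 and T47D-co with EtOH replicate 2, the locus with MT-ATP6 is listed at 0, and their share of mitochondrial transcripts was 0.942 to 1.07%, against 3.17 to 4.74% in the other 20. In T47D-Y with R5020 replicate 2 the entries RN7SL1, RN7SL2, LRR1 and RPS29 are listed at 0 too. Without those 4 libraries 11436 line differences with R5020 and 6752 interactions were called, in a fit that leaves T47D-Y with R5020 1 library, assumed to vary like the other groups.

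The labels were first held against PGR, the gene of the progesterone receptor (chr11:100900355-101001255 on hg19, 1 gene at its locus). With R5020, PGR had 13718, 13254 and 12782 scaled fragments in T47D-co, against 466, 446 and 483 in T47D-Y. The T47D-Y libraries were low but not at 0, and the groups lay far apart. With EtOH the mean was 26482 ± 1399 in T47D-co, against 693 ± 37.5 in T47D-Y. PGR fell with R5020 in both lines, and the line difference was 4.83 ± 0.05 with R5020 and 5.26 ± 0.05 with EtOH, a narrowing of -0.42 ± 0.07 (adjusted p = 1.04e-05). A transcript level does not show whether T47D-Y makes receptor protein.

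Other steroid receptors differed as well, and most of these differences moved with R5020. The glucocorticoid receptor gene NR3C1, whose product binds the same DNA elements, had 606, 579.5 and 585 scaled fragments in T47D-co with R5020, against 35.4, 23.2 and 29.4 in T47D-Y. Its line difference was 4.30 ± 0.13 with R5020 and 5.57 ± 0.13 with EtOH, so it narrowed. ESR1, the oestrogen receptor gene, averaged 10923 ± 213 in T47D-co with R5020, against 4301 ± 203 in T47D-Y, and 18778 ± 682 with EtOH, against 4307 ± 113, and also narrowed (interaction -0.78 ± 0.06). Both receptors stayed higher in T47D-co.

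The vitamin D receptor gene VDR widened with T47D-co higher, at a line difference of 1.91 ± 0.04 with R5020 and 0.52 ± 0.04 with EtOH. Among retinoic acid receptor genes, RARG widened in the other direction (-1.39 ± 0.05 and -0.66 ± 0.05) and RARA reversed (-0.39 ± 0.07 and 0.90 ± 0.07). Of the 19 receptor and coregulator genes tested, 9 were higher and 6 lower in T47D-co with R5020, and the interaction was positive in 6 and negative in 12. That balance depends on the scale, with 6 higher and 11 lower on the deposited scale, 7 and 10 under quantile normalization and 7 and 8 with upper-quartile factors. The list's median difference of 0.08 turned to -0.13 on the deposited scale and -0.08 under quantile normalization.

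The widest gaps with R5020 were mostly kept, that is, also called with EtOH with no called interaction, for 7 of the 10 genes with the largest rise and 8 of the 10 with the largest fall. ALB, which encodes serum albumin, a liver protein, had 28779.6, 28499.8 and 28673 scaled fragments in T47D-co with R5020, against 3.02, 11.1 and 2.52 in T47D-Y. With EtOH the values were 34838, 35132 and 34764 in T47D-co, against 6.61, 14.0 and 3.19 in T47D-Y. T47D-co libraries were high and T47D-Y libraries near 0 in both conditions, and the interaction was 0.21 ± 0.53 (adjusted p = 0.791). T47D-co was lower with R5020 than with EtOH in every library. The error of the interaction was wide, with T47D-Y values of 2.52 to 14.0. GFRA1, a co-receptor for glial cell-derived neurotrophic factor, averaged 6899.9 ± 174 in T47D-co with R5020, against 2.8 ± 1.02 in T47D-Y. MAGEB2, a cancer-testis antigen gene, averaged 753 ± 9.49 in T47D-co, against 0.351 ± 0.609 in T47D-Y, and SERPINA6, the gene of corticosteroid-binding globulin, 1377 ± 61.5, against 3.06 ± 1.81. Each of these was kept, with line differences of 10.87 ± 0.34, 9.21 ± 0.27 and 8.50 ± 0.25 with R5020.

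OLFML3, a secreted olfactomedin-like protein gene, belonged to the kept class (8.02 ± 0.36 with R5020 and 7.99 ± 0.36 with EtOH) although its T47D-co level was 1417 ± 33.8 with R5020 and 713 ± 6.63 with EtOH, a called rise in T47D-co (0.99 ± 0.36). ARSJ, an arylsulfatase gene, was among the same top genes but narrowed, with 1357 ± 51.8 in T47D-co with R5020 and 3731 ± 148 with EtOH, and under 10 scaled fragments in every T47D-Y library. NR2F1, an orphan nuclear receptor gene that shares its locus with another entry, had a line difference of 7.75 ± 0.14 with R5020, and 5.49 when the entries of the locus were summed.

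Among the largest falls, NDST4, a heparan sulfate-modifying enzyme gene, had 4.6, 0 and 0 in T47D-co with R5020, against 888, 794 and 858 in T47D-Y. APCDD1, an inhibitor of Wnt signalling, had 0.92, 0.84 and 1.3 in T47D-co, against 786, 841 and 869.8 in T47D-Y. The line differences were -8.90 ± 0.45 and -8.69 ± 0.40. The rule that picked the largest rises and falls asked for no overlap between the lines. Of all 996 entries called and at least 8-fold apart with R5020, 991 did not overlap. MYO3A (an unconventional myosin), ST8SIA4 (a polysialyltransferase) and SLC2A5 (the fructose transporter) differed by -8.57, -8.57 and -7.75 and were kept likewise. CTNND2, a delta-catenin gene, and CDH10, a cadherin gene, were among these lowest genes but widened. CTNND2 averaged 34.4 ± 4.56 in T47D-co with R5020 and 81.8 ± 14.8 with EtOH, while T47D-Y averaged 14177 ± 572 with R5020 and 14844 ± 499.7 with EtOH. Its line difference was -8.65 ± 0.10 with R5020 and -7.50 ± 0.10 with EtOH, and that of CDH10 -7.54 ± 0.07 and -5.73 ± 0.07.

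Of the widened entries 1210 were higher and 1324 lower in T47D-co with R5020. ZBTB16, which encodes the transcriptional repressor PLZF, had 6187, 6402 and 6456 scaled fragments in T47D-co with R5020, against 27.2, 38.4 and 37.6 in T47D-Y. With EtOH it had 7.94, 12.1 and 9.22 in T47D-co, against 1.65, 2.15 and 2.13 in T47D-Y. R5020 raised it in both lines, with a change of 9.22 ± 0.31 for T47D-co and of 3.56 ± 0.31 for T47D-Y, and the line difference was 7.50 ± 0.31 with R5020 and 1.84 ± 0.31 with EtOH. IL20RA, a subunit of the receptors for interleukins 20 and 24, had 6356, 6198 and 6373 in T47D-co with R5020, against 154, 149 and 174 in T47D-Y. With EtOH it averaged 223 ± 5.99 in T47D-co, against 147 ± 14.9 in T47D-Y. T47D-co with R5020 was the only high group, and the line difference was 5.31 ± 0.07 with R5020 and 0.60 ± 0.07 with EtOH (interaction adjusted p = 7.27e-22).

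FKBP5, a chaperone of steroid receptors that progestins and glucocorticoids induce, had 21308, 20955 and 22475 in T47D-co with R5020, against 2169, 2056 and 2093 in T47D-Y, and the groups did not overlap. It also rose in T47D-Y with R5020 (0.79 ± 0.04, adjusted p = 1.02e-11), and its line difference was 3.36 ± 0.04 with R5020 and 0.77 ± 0.04 with EtOH. GREB1, an oestrogen-induced receptor cofactor, widened to 4.31 ± 0.06 with R5020, against 2.63 ± 0.06 with EtOH, and KLF4, a zinc-finger factor, to 3.12 ± 0.11, against 1.41 ± 0.11. ATP13A4, a P5-type ATPase gene, the gap junction gene GJB2 and the ADP-ribosyltransferase gene TIPARP widened to 5.20 ± 0.14, 4.04 ± 0.14 and 3.32 ± 0.05 with R5020. Without progestin the same gaps were 1.37 ± 0.14, 0.57 ± 0.14 and 0.20 ± 0.05.

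Among genes that widened in the other direction, T47D-co was at or near 0 with R5020 for CCL2 and PLAU. CCL2, a chemokine that draws monocytes, had 0, 1.68 and 0 in T47D-co with R5020, against 103, 106 and 103 in T47D-Y, and 14.4, 17.1 and 17.3 in T47D-co with EtOH, against 102, 111 and 137. PLAU, the gene of urokinase, had 0.92, 3.36 and 1.3 in T47D-co with R5020, against 309, 329 and 308, and 23.0 ± 1.98 with EtOH, against 299.7 ± 10.1. T47D-Y libraries were high in both conditions, and T47D-co libraries were lower with R5020 than with EtOH. The line differences with R5020 were -6.24 ± 0.34 and -6.88 ± 0.22, and those with EtOH -2.76 ± 0.34 and -3.65 ± 0.22. DUSP10 and DUSP6, phosphatases of MAP kinases, widened in this direction as well, to -3.34 ± 0.18 and -3.10 ± 0.15, while DUSP1, another member of that family and a glucocorticoid target, widened with T47D-co higher (2.89 ± 0.14, against 0.55 ± 0.14 with EtOH).

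Of the opened entries 983 were higher and 1146 lower in T47D-co with R5020. KRT5, the basal keratin gene (chr12:52908359-52914471 on hg19), had 252, 253 and 278 scaled fragments in T47D-co with R5020, against 3.77, 0.527 and 1.68 in T47D-Y. With EtOH it had 0.962, 0.714 and 0 in T47D-co, against 1.65, 2.15 and 2.13 in T47D-Y. Only the 3 T47D-co libraries with R5020, of these 12, were above 10. The line difference was 6.60 ± 0.46 with R5020, and the interaction was 7.59 ± 0.66 (adjusted p = 4.05e-10). In bulk RNA, fewer cells of a type and less RNA per cell cannot be told apart.

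KLK3, which encodes prostate-specific antigen (chr19:51358171-51364020 on hg19), had 66.3, 73.9 and 79.3 in T47D-co with R5020, against 1.51, 1.05 and 2.52 in T47D-Y, and at most 1.08 in any EtOH library. PRDM1, a transcriptional repressor gene, had 401, 403 and 468 in T47D-co with R5020, against 9.8, 10.0 and 9.25 in T47D-Y. KLF15, a Kruppel-like factor that glucocorticoids induce, had 855, 875 and 950.0, against 20.4, 24.3 and 24.4. In all 3 genes the T47D-co libraries with R5020 were high and the other libraries low, and the line differences with R5020 were 4.81 ± 0.53, 5.31 ± 0.39 and 5.22 ± 0.17. PKP1 (a desmosomal plakophilin), SGK1 (a kinase that regulates ion transport) and TSC22D3 (which encodes the anti-inflammatory factor GILZ) opened by 4.87 ± 0.30, 3.69 ± 0.11 and 2.27 ± 0.07. SGK1 also rose in T47D-Y (0.94 ± 0.11), with 158 ± 20.2 with R5020 and 81.1 ± 4.41 with EtOH.

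Among genes that opened downward, NUAK2, an AMPK-related kinase gene, had 18.4, 21.8 and 27.3 in T47D-co with R5020, against 167, 168 and 188 in T47D-Y. BCL2, which encodes an inhibitor of apoptosis, had 28.5, 23.5 and 15.6, against 137, 141 and 129. In both genes T47D-co libraries were the lower ones with no overlap, and the line differences were -2.91 ± 0.15 and -2.58 ± 0.16 with R5020 and not called with EtOH. SPDEF, an ETS factor of luminal cells, opened by -0.88 ± 0.06.

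Promoter sequence was read for genes that moved together with R5020, from the RefSeq windows of 250 bases before the start of each gene (GRCh38.p14). Such a window was matched to 10558 of 13019 tested coding genes (81.1%). The hexamer TGTTCT, the half-site of the element that progesterone and glucocorticoid receptors share, searched on both strands (AGAACA on the other), lay in the window of 824 genes (7.8%), and the looser full palindrome GNACANNNTGTNC in 16 (0.152%), with overlaps of both motifs counted under each. KLK3 (chr19:50854665-50854914, plus strand) and STAT5A (chr17:42287189-42287438, plus strand) held a half-site at bases -170 and -97, counted from the first base before the start as -1. MAP3K6, a stress-activated kinase gene (chr1:27366962-27367211, minus strand), held the full palindrome at -152, and KRT5 (chr12:52520395-52520644, minus strand) held neither. The bases just after the start were found in a GENCODE transcript of KLK3 and of KRT5, but not of STAT5A or MAP3K6, whose starts are less sure. The 4 windows are given 5′ to 3′ on the strand of the gene with the motif in capitals, to set an opened gene with and without the hexamer beside a closed and a widened one.
KLK3: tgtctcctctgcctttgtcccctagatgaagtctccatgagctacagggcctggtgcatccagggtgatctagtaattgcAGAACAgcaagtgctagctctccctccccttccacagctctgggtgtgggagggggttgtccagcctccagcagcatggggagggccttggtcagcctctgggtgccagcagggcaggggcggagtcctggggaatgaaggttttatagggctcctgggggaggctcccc
STAT5A: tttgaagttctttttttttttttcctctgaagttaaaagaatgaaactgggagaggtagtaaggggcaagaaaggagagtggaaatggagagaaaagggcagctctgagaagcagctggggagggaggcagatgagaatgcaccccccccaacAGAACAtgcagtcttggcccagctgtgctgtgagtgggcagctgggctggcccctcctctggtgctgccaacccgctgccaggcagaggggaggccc
MAP3K6: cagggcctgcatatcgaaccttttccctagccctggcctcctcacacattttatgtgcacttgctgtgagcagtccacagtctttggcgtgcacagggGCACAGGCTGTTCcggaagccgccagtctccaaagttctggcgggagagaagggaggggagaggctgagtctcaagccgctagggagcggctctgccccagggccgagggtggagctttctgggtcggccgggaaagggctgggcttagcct
KRT5: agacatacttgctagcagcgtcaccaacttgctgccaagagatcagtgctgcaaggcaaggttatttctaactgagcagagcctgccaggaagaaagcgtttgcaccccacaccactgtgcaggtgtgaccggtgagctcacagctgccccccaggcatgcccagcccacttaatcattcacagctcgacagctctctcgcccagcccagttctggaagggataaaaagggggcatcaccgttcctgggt

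Over the 5 moved classes, each split by the sign of the interaction, the hexamer lay in 5.51% (narrowed, negative) to 9.65% (opened, negative) of the windows. The share was 7.72% for opened genes with a positive interaction, 7.57% for kept genes and 9.18% for genes with no called interaction that were not kept. It lay in 6.83% of 761 genes whose interaction was called, positive and at least 2-fold, and in 11.6% of 620 genes with such a negative interaction, beside 7.8% of all. The palindrome lay in 5 widened genes with a positive interaction (0.572%) and 4 narrowed genes with a negative one (0.847%), beside 0.152% of all. It lay in 0 opened and 0 closed genes of either sign and in 4 kept genes (0.146%). Among genes with a called interaction of at least 2-fold it lay in 0.263% (positive) and 0.323% (negative). These counts are small and were not tested. MAP3K6 was shown as an example, outside the rule for named genes given below. A match of letters is not a site of binding, and elements farther from the start are outside these windows. MAP3K6 itself averaged 718 ± 44.9 in T47D-co with R5020, against 217 ± 34.3 in T47D-Y, and 276 ± 12.8 with EtOH, against 212 ± 20.8, and widened (1.73 ± 0.10, against 0.38 ± 0.10).

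Of the narrowed entries 741 were higher and 698 lower in T47D-co with R5020, each less so than with EtOH. LEMD1, a cancer-testis antigen gene, had 119, 91.5 and 104 in T47D-co with R5020, against 427, 414 and 392 in T47D-Y. With EtOH it had 0.962, 5.71 and 2.3 in T47D-co, against 413, 426 and 418 in T47D-Y. T47D-co libraries were lower in both conditions, near 0 only with EtOH, and the line difference was -1.97 ± 0.28 with R5020 and -6.90 ± 0.28 with EtOH. FZD8, a Wnt receptor gene, and KLF5, a Kruppel-like factor, narrowed in the same way, to -2.33 ± 0.33 and -1.57 ± 0.05 with R5020, against -5.59 ± 0.33 and -3.45 ± 0.05 with EtOH.

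From above, EBF1, an early B-cell transcription factor gene, had 24.9, 22.7 and 19.5 in T47D-co with R5020, against 2.26, 0.527 and 1.68 in T47D-Y, and 320.3, 344 and 349 in T47D-co with EtOH, against 0.826, 2.15 and 3.19. T47D-co stayed above T47D-Y in every library, with a line difference of 3.29 ± 0.33 with R5020 and 6.87 ± 0.33 with EtOH. GRPR, the gastrin-releasing peptide receptor gene, narrowed to 2.52 ± 0.18, against 5.98 ± 0.18, and summing the 3 entries of its locus gave 2.92 with R5020.

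Of the closed entries 601 had a positive and 740 a negative interaction. STAT5A, a transcription factor that acts downstream of the prolactin receptor (chr17:40439565-40463961 on hg19), had 117, 87.3 and 87.1 scaled fragments in T47D-co with R5020, against 117, 109 and 128 in T47D-Y. With EtOH it had 8.66, 5 and 5.76 in T47D-co, against 95.03, 122 and 129.8 in T47D-Y. The groups overlapped with R5020 and were more than 10-fold apart with EtOH. The line difference was -0.29 ± 0.20 with R5020 (adjusted p = 0.206) and -3.98 ± 0.20 with EtOH, and on the deposited scale, -0.50 with R5020, it was called.

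MYC, the proto-oncogene transcription factor, had 135, 160.4 and 164 in T47D-co with R5020, against 145, 131 and 162 in T47D-Y, and 25.02, 38.5 and 38.0 with EtOH, against 144, 130.1 and 137. LIFR, the receptor of leukaemia inhibitory factor, had 391, 375 and 372 in T47D-co with R5020, against 381, 338 and 373, and 25.9, 24.3 and 25.5 with EtOH, against 349, 332 and 398. In both genes only the T47D-co libraries with EtOH stood apart, low, and the interactions were 2.08 ± 0.24 and 3.84 ± 0.22. PPP1R14C (an inhibitor of protein phosphatase 1), SGPP2 (a sphingosine-1-phosphate phosphatase) and BARX2 (a homeobox factor) had interactions of 4.44 ± 0.11, 3.73 ± 0.25 and 3.58 ± 0.33, and their T47D-co means with EtOH were 18.2 ± 1.55, 11.7 ± 1.8 and 24.1 ± 3.23. Their T47D-co means with R5020 were 470.3 ± 27.6, 202 ± 29.9 and 277 ± 46.1, against 450.0 ± 26.3, 251.3 ± 21.2 and 245 ± 12.8 in T47D-Y. WNT4, a paracrine effector of progesterone in the mammary gland, had 221 ± 11.0 in T47D-co with R5020, against 206 ± 7.32 in T47D-Y, and 117 ± 12.1 with EtOH, against 209 ± 10.1 (interaction 0.94 ± 0.13).

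In other closed differences T47D-co was lower with R5020 than with EtOH. FAT1, an atypical cadherin gene, had 7.36, 8.4 and 14.3 in T47D-co with R5020, against 7.54, 11.6 and 12.6 in T47D-Y, and 55.8, 49.96 and 55.3 with EtOH, against 11.6, 4.3 and 9.57. LRRK2, a large kinase gene, had 152, 128 and 107 with R5020, against 110.1, 115 and 108, and 853, 786 and 808 with EtOH, against 107, 94.6 and 112. T47D-co with EtOH was the high group in both genes, and with R5020 the lines overlapped for FAT1 and LRRK2. KCNJ3, a potassium channel gene, behaved likewise, with 18.2 ± 5.99 in T47D-co with R5020 and 136 ± 16.0 with EtOH. The 3 interactions were -2.71 ± 0.54, -2.76 ± 0.15 and -2.93 ± 0.40.

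Of the reversed entries 829 were higher in T47D-co with R5020 and lower with EtOH, and 637 were lower with R5020 and higher with EtOH. ZBTB7C, a zinc-finger repressor gene, had 3597, 3795 and 3607 scaled fragments in T47D-co with R5020, against 1149, 1129 and 1131 in T47D-Y. With EtOH it had 47.2, 62.8 and 61.1 in T47D-co, against 1117, 1033 and 1062 in T47D-Y. T47D-co was the high line with R5020 and the low line with EtOH, with no overlap in either, and the line difference was 1.69 ± 0.08 with R5020 and -4.22 ± 0.08 with EtOH (interaction 5.91 ± 0.11, adjusted p = 1.4e-22).

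CORO2B, an actin-binding coronin gene, rose with R5020 in both lines, with a change of 9.17 ± 0.23 for T47D-co and of 2.35 ± 0.23 for T47D-Y, and its line difference was 5.09 ± 0.23 with R5020 and -1.72 ± 0.23 with EtOH. The GTPase gene RHOU and the calcineurin regulator gene TESC reversed to 2.32 ± 0.18 and 3.53 ± 0.32 with R5020, against -2.65 ± 0.18 and -1.77 ± 0.32 with EtOH. GLUL, glutamine synthetase, had 17005, 17146 and 17358 in T47D-co with R5020, against 5344, 5447 and 5366 in T47D-Y, and 1496, 1516 and 1513 with EtOH, against 4237, 4518 and 4326. The lines stood apart in opposite directions, by 1.67 ± 0.03 with R5020 and -1.53 ± 0.03 with EtOH. CCND1, cyclin D1, had 6690.3, 6812 and 6377 in T47D-co with R5020, against 3702, 3859 and 3919, and 1747, 1717 and 1747 with EtOH, against 3549, 3535 and 3638, a reversal to 0.79 ± 0.04 with R5020 of a difference of -1.04 ± 0.04 with EtOH.

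Reversal in the other direction took in luminal factors. FOXA1, the pioneer factor that opens chromatin for the oestrogen receptor, had 2346, 2414 and 2330.3 in T47D-co with R5020, against 3263, 3455 and 3515 in T47D-Y. With EtOH it had 7313, 6939 and 7264, against 3656, 3542 and 3604. T47D-co was lower with R5020 and higher with EtOH in every library, by -0.53 ± 0.04 and 0.99 ± 0.04. FOXA1 shares its locus with 3 other entries, and their sum gave -0.37 with R5020. GATA3, another luminal factor, reversed in the same direction, at -0.47 ± 0.03 with R5020 and 0.33 ± 0.03 with EtOH. PHACTR1, an actin and phosphatase regulator gene, had 796 ± 60.1 in T47D-co with R5020, against 1259 ± 89.5, and 8704 ± 239 with EtOH, against 1323 ± 111, a line difference of -0.66 ± 0.06 and 2.72 ± 0.06. It shares its locus with another entry, and the interaction of -3.38 was -2.56 when both were summed, with -0.59 with R5020. AMIGO2, an adhesion molecule gene, and PCED1B share a locus of 4 entries, and its sum reversed, with a line difference of -1.47 with R5020 and an interaction of -4.16. TNFSF10, the death ligand TRAIL, had 30.4, 37.1 and 33.8 in T47D-co with R5020, against 52.2, 50.2 and 46.4, and 199, 209 and 185 with EtOH, against 60.5, 46.3 and 43.7. Its line difference of -0.55 ± 0.14 with R5020 was no longer called under quantile normalization (-0.27) or without the 4 libraries named above (-0.45, with 1 T47D-Y library left under R5020), while that of 1.97 ± 0.14 was the larger with EtOH.

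**Figure D2:**
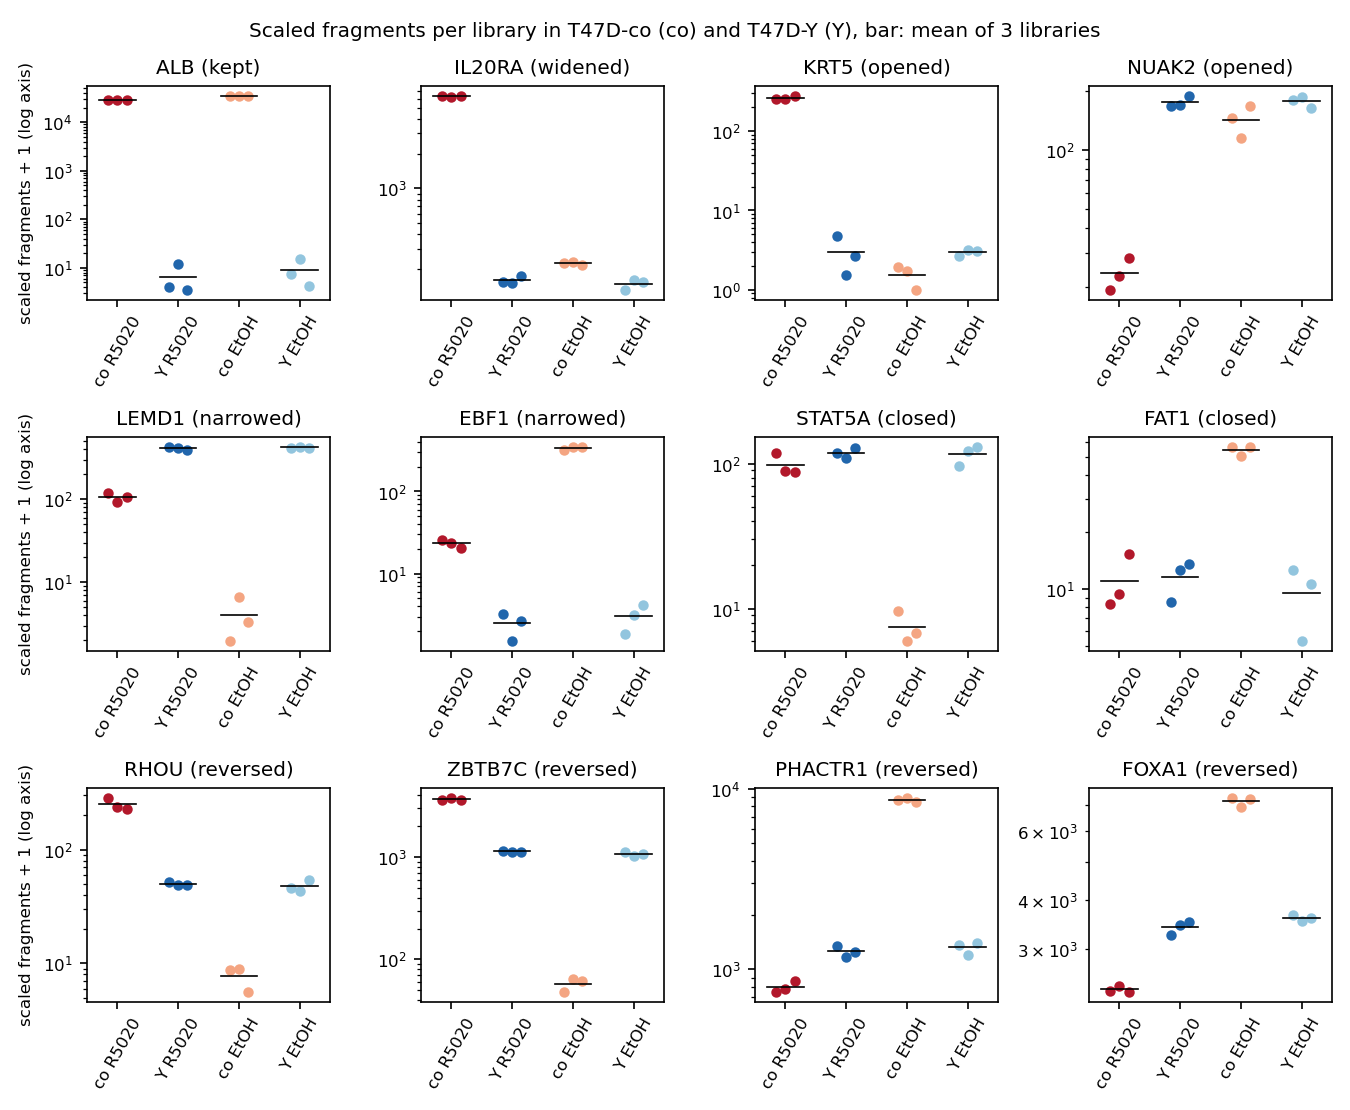
Scaled fragments + 1 per library (log axis, each panel with its own range) of 12 genes, with 3 libraries in each of 4 groups, all given water, and a bar at the group mean. T47D-co with R5020 is left of T47D-Y with R5020, and the pair with EtOH follows. In every panel the T47D-co libraries with R5020 lie clear of those with EtOH. A change of T47D-co was called in all but ALB, while T47D-Y had no called change.

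The state of a line difference with R5020 varied with its size without progestin. Of 819 entries at least 8-fold apart with EtOH, 58.6% were kept, 23.2% narrowed, 10.1% widened, 6.23% closed and 1.22% reversed. Of 3171 entries from 2-fold to under 8-fold apart, 43.6% were kept, 17% narrowed, 16.1% widened, 8.55% closed and 5.93% reversed. Of 8742 entries called but under 2-fold apart, 35% were kept, 22.2% widened, 14.5% reversed, 11.7% closed and 8.12% narrowed, and the rest of each bin had neither a called interaction nor a called difference with R5020. Binned by the difference with R5020, 51.1% of the 996 entries at least 8-fold apart were kept, 29.8% widened and 8.13% opened.

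**Figure D3:**
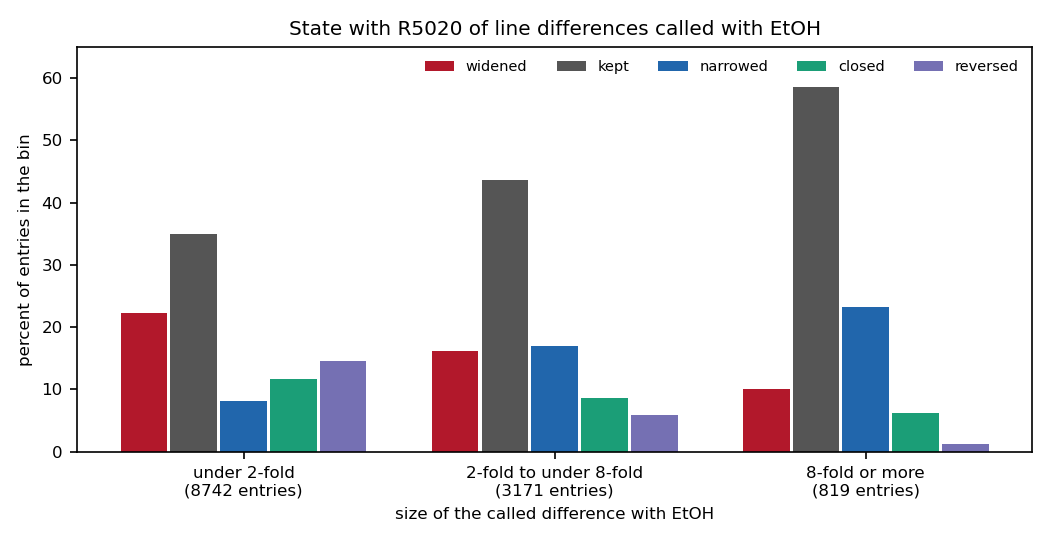
Percent of entries (vertical axis) that were widened, kept, narrowed, closed or reversed with R5020, in 3 bins of the size of the line difference called with EtOH (horizontal axis, number of entries in brackets). The share of kept entries is 58.6% in the bin of 8-fold or more and 35% in that under 2-fold, and the share of reversed entries 1.22% and 14.5%. Bins and classes both use the difference with EtOH, and kept means only that the interaction was not called.

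Gene lists, chosen with earlier results of these data known, were described by their counts beside all tested entries, of which 32% were higher, 36.6% lower, 21.6% had a positive and 23% a negative interaction. Of 38 progestin and glucocorticoid targets tested, 29 were higher and 5 lower in T47D-co with R5020, and the interaction was positive in 32 and negative in 1. Their median line difference was 1.57 with R5020 and -0.39 with EtOH, and 12 of them reversed. Besides GLUL these included CEBPD, a C/EBP transcription factor (2.79 ± 0.13 with R5020 and -0.60 ± 0.13 with EtOH), HSD11B2, which inactivates cortisol (2.72 ± 0.13 and -0.60 ± 0.13), and PDK4, a kinase that holds back pyruvate oxidation (1.89 ± 0.45 and -1.99 ± 0.45). NDRG1, a stress-induced gene, widened to 4.11 ± 0.10, against 2.97 ± 0.10. Set against the median of all tested entries, the list lay 1.61 higher on the common and the deposited scale and 1.41 higher under quantile normalization.

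Most members of the luminal lists were lower in T47D-co with R5020. Of 19 luminal transcription factors 7 were higher and 11 lower in T47D-co, with a median line difference of -0.47 with R5020 and 0.00 with EtOH, and the interaction was negative in 13 and positive in 3. Their summed scaled fragments with R5020 were nonetheless higher in T47D-co, 233494 to 239402, against 149323 to 152542 in T47D-Y. TFAP2B, an AP-2 factor, differed most (-5.28 ± 0.06 with R5020), and its relative TFAP2C (-1.43 ± 0.04) and the ETS factor EHF (-1.91 ± 0.05, against -0.85 ± 0.05 with EtOH) widened in the same direction. AFF3 and RUNX1 were instead higher in T47D-co with R5020, although AFF3 narrowed. AFF3 stayed higher in T47D-co (4.14 ± 0.08, against 5.14 ± 0.08), and it rose with R5020 in both lines, with a change of 0.50 ± 0.08 for T47D-co and of 1.498 ± 0.08 for T47D-Y. RUNX1 reversed to 1.78 ± 0.05, against -0.38 ± 0.05.

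Markers of luminal epithelium were present in both lines, all 8 tested, with sums of 67582 to 69868 scaled fragments in T47D-co with R5020, against 106002 to 111865 in T47D-Y. Of these 8, 7 were lower and 1 (ESR1) higher in T47D-co with R5020. The keratin genes KRT8 and KRT18, which share a locus, differed by -1.32 and -1.79, the E-cadherin gene CDH1 by -1.25 and the adhesion molecule gene EPCAM by -0.33, all log2 differences with R5020. Of 7 basal markers 5 were tested, with sums of 861 to 904 in T47D-co and 614 to 636 in T47D-Y. Fibroblast, endothelial and blood markers had 1 tested gene each, of 7, 5 and 5, with sums up to 375, 9.10 and 59.3 in T47D-co with R5020 and up to 215, 9.05 and 14.0 in T47D-Y, and the other markers of those lists were not among the tested entries. VIM, the mesenchymal filament gene, was lower in T47D-co (-2.88 ± 0.33, and -3.46 for the 3 summed entries of its locus), while CD44, a hyaluronan receptor, and CYR61, a matricellular protein, widened with T47D-co higher (3.49 ± 0.07 and 4.18 ± 0.05).

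Cell cycle genes split by phase. The list of the G1 to S transition also holds brakes on the cycle, among them CDKN1A, CDKN1B, CDKN1C and RB1. Its counts therefore do not measure proliferation. Of 40 genes of the G1 to S transition and DNA replication, 30 were higher and 6 lower in T47D-co with R5020, with a positive interaction in 29 and a negative one in 2, and a median line difference of 0.45 with R5020 and -0.03 with EtOH. E2F1, an activator of S-phase genes, CDK6, a G1 kinase, and UHRF1, which maintains DNA methylation, widened to 1.498 ± 0.05, 2.57 ± 0.04 and 1.60 ± 0.06. MCM10 and CDC6, which act at replication origins, differed by 1.46 ± 0.05 and 0.84 ± 0.06, and the helicase subunit gene MCM5 reversed to 0.67 ± 0.05, against -0.25 ± 0.05. Of 28 genes of G2 and mitosis, 5 were higher and 19 lower in T47D-co with R5020 (3 and 23 on the deposited scale), with medians of -0.30 and -0.25 with R5020 and EtOH. TOP2A, CENPE and CENPF, which act on chromosomes in mitosis, differed by -0.76, -0.85 and -0.74, and the difference of CENPF was kept.

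Growth factor receptors and their ligands moved as a mixed group. Of 16 genes on the list of EGF receptors and ligands 8 were higher and 5 lower in T47D-co with R5020. Of their interactions 9 were positive and 4 negative. These counts include ERRFI1, LRIG1, GRB7 and AGR2, which are neither receptors of this family nor its ligands. EGF had 2061, 1944 and 2143 in T47D-co with R5020, against 116, 79.1 and 78.2 in T47D-Y, and its receptor gene EGFR 4718, 4920.0 and 4963, against 1417, 1382 and 1450.1. T47D-co libraries were higher for both with no overlap, and both widened (4.50 ± 0.13 and 1.78 ± 0.03 with R5020, against 3.09 ± 0.13 and 0.24 ± 0.03 with EtOH). The ligand genes BTC and EREG were also higher (2.82 ± 0.26 and 2.26 ± 0.24). The receptor gene ERBB2 widened downward (-1.71 ± 0.05, against -0.54 ± 0.05), and ERBB4 narrowed (1.41 ± 0.05, against 2.75 ± 0.05). IGF1R, the insulin-like growth factor receptor gene, widened to 2.21 ± 0.03, whereas its ligand gene IGF1 (-4.76 ± 0.22) and the binding protein gene IGFBP4 (2.99 ± 0.06) were kept in opposite directions.

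Oestrogen targets were mostly higher in T47D-co, 17 of 25 with 6 lower, and their median was 0.83 with R5020 and 0.65 with EtOH. SERPINA1, alpha-1 antitrypsin, differed by 4.52 ± 0.23, and CXCL12, a chemokine, by 4.29 ± 0.19, both with R5020. PRLR, the prolactin receptor gene, had 63667 ± 1238 in T47D-co with R5020, against 17439.6 ± 340.3 in T47D-Y (1.87 ± 0.03). STAT3, a relative of STAT5A, widened to 1.47 ± 0.03, against 0.39 ± 0.03.

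Both metabolic lists had more positive than negative interactions. Of 25 glycolysis and hypoxia genes, 18 were higher and 5 lower in T47D-co with R5020, and the median was 1.21 with R5020 and 1.12 with EtOH, with a positive interaction in 13 and a negative one in 3, and 12 widened. LDHA, a subunit of lactate dehydrogenase, differed by 2.05 ± 0.05, against 1.42 ± 0.05, and BNIP3, a mitophagy receptor gene, by 2.68 ± 0.07, against 1.52 ± 0.07. LDHB, the other lactate dehydrogenase subunit gene, had 7.36, 5.04 and 9.1 in T47D-co with R5020, against 722, 711 and 703 in T47D-Y, a difference of -6.48 ± 0.24. It shares its locus with other entries, 3 in all, and the interaction was 0.41 for the entry and -1.79 for their sum, with -6.11 with R5020, so how the difference moved depends on how fragments were divided. Of 25 sterol and fatty acid synthesis genes, 15 were higher and 7 lower, with a positive interaction in 19 and a negative one in 0, and a median of 0.35 with R5020 and 0.01 with EtOH. Under quantile normalization 15 of these interactions were positive and 1 negative. SCD, a fatty acid desaturase gene, SQLE, a sterol synthesis gene, and ACSL3, an acyl-CoA synthetase gene, differed by 1.12 ± 0.03, 0.85 ± 0.04 and 1.17 ± 0.03.

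Smaller lists held strong single genes. Of 16 tested steroid-metabolising enzymes 8 were higher and 7 lower in T47D-co with R5020. STS, steroid sulfatase, was lower (-4.57 ± 0.07), and AKR1C3, a 17-ketosteroid reductase gene, opened (3.69 ± 0.45) with 50.6, 60.5 and 62.4 in T47D-co, against 3.77, 6.33 and 1.68 in T47D-Y. Of 5 metallothionein-related genes all were higher with R5020, with MT2A at 1.09 ± 0.16. The deposited scale called 4 of the 5. Of 26 matrix and integrin genes 8 were higher and 16 lower (5 and 18 on the deposited scale), with LAMB3, a laminin chain, at -3.90 ± 0.07. Of 23 NF-kappaB genes and chemokines 6 were higher and 16 lower, with a median of -0.74 with R5020 and -0.23 with EtOH. Their interaction was positive in 4 and negative in 7, and 9 of the differences were kept. Besides CCL2 the chemokine gene CXCL1 was lower (-2.26 ± 0.61), while CXCL12, on the same list, was higher (4.29). Summed over the list, scaled fragments with R5020 were higher in T47D-co, 8971 to 9489, against 7166 to 7522 in T47D-Y. Of 25 BCL2 family and death ligand genes 7 reversed, among them BCL2L11, which encodes the pro-apoptotic BIM (1.66 ± 0.05 with R5020 and -1.01 ± 0.05 with EtOH).

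**Figure D4:**
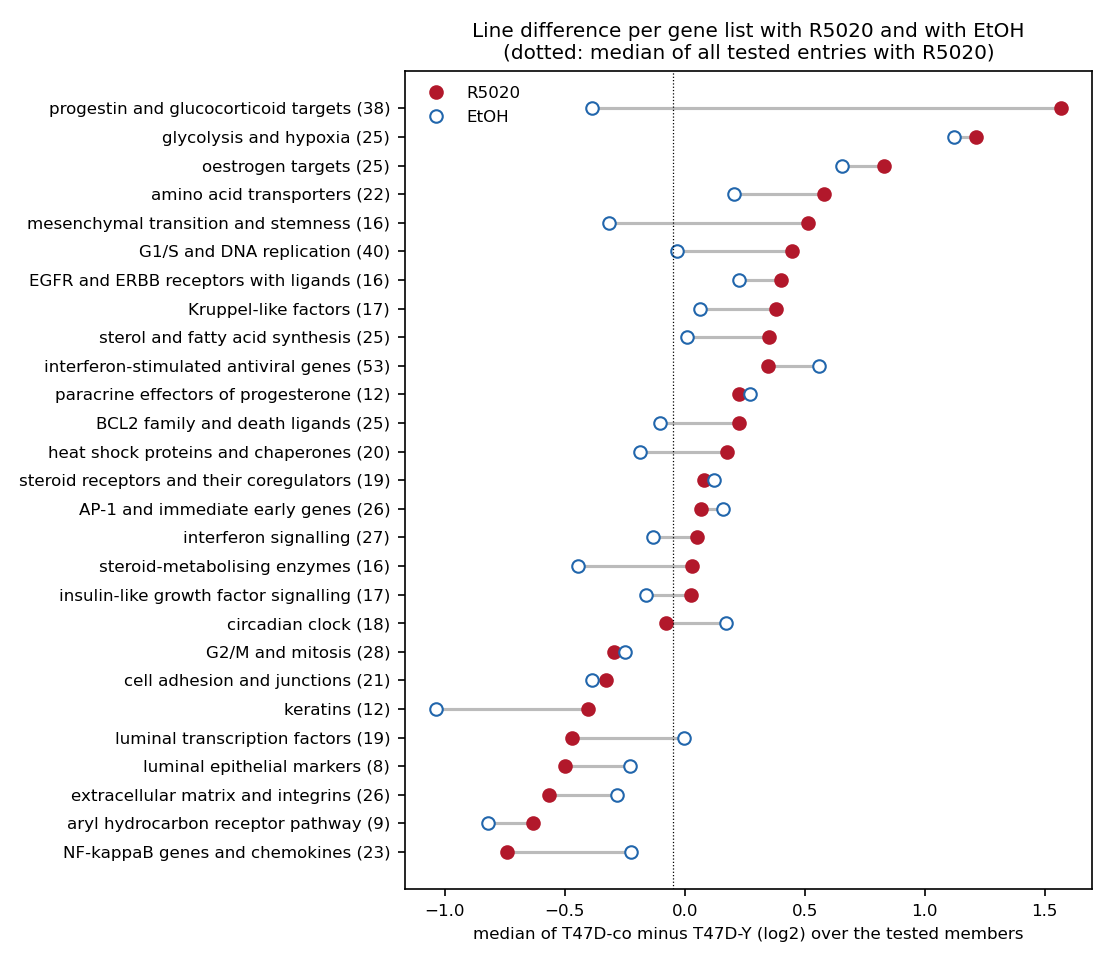
Median line difference (T47D-co minus T47D-Y, log2, horizontal axis) over the tested members of each gene list with at least 8 of them (vertical axis, number of members in brackets), filled points with R5020 and open points with EtOH. Among these lists the progestin and glucocorticoid targets have the highest median with R5020, 1.57, against -0.39 with EtOH, and the NF-kappaB genes and chemokines the lowest, -0.74, against -0.23.

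Interferon-stimulated genes, the subject of the study's title, had more negative than positive interactions. Of 53 antiviral genes tested, 24 were higher and 16 lower in T47D-co with R5020 in libraries given water, against 25 higher and 8 lower with EtOH, and the median was 0.35 with R5020 and 0.56 with EtOH. The interaction was negative in 24 and positive in 7. By class 12 narrowed, 10 opened, 3 widened, 3 closed and 2 reversed, so line differences became smaller in some and larger in others. ISG15, a ubiquitin-like modifier, had 35.0, 46.2 and 39.0 in T47D-co with R5020, against 16.6, 10.0 and 15.1 in T47D-Y, and 72.2, 59.95 and 64.5 with EtOH, against 9.92, 14.0 and 12.8. T47D-co was higher in both conditions, by 1.48 ± 0.15 with R5020 and 2.34 ± 0.15 with EtOH, and the narrowing was not called with voom weights (-0.87, adjusted p = 0.166). The ligase gene HERC5 opened (2.47 ± 0.12, against 0.10 ± 0.12) and LAMP3, a lysosomal membrane protein gene, reversed (2.52 ± 0.08, against -0.56 ± 0.08), both toward a higher level in T47D-co.

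The 12 libraries given IFN allowed the same comparison in other samples, although they shared the size factors, the filter and the variance estimate with the libraries given water. Of the 13815 line differences with R5020, 12218 were called in the same direction with IFN (88.44%) and 31 in the opposite one. The interaction of line and R5020 was called in 9280 entries with IFN (46%), and of the 8989 called with water, 7246 were called with IFN in the same direction and 9 in the opposite one. By class, the share with an interaction called in the same direction was 95.8% of reversed, 83.2% of widened, 79.2% of narrowed, 75.7% of opened and 70.6% of closed entries. Fewer fell in the same class with IFN, 71.9% of reversed, 76% of widened, 69% of narrowed, 56.8% of opened and 47.2% of closed entries. Of the kept entries 67.2% were also kept with IFN, and 18.1% had an interaction called there in the direction of their uncalled one with water. For KRT5 the interaction was 6.48 ± 0.66 with IFN, for ZBTB7C 5.89 ± 0.11 and for STAT5A 3.43 ± 0.28. Both interactions were compared with each other directly, and 12 entries (0.0595%) differed.

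Of these 12, 3 are coding genes named in this text, and these 3 are also on the gene lists. CYP1A1 and CYP1B1, targets of the aryl hydrocarbon receptor that metabolise hydrocarbons and oestrogens, had interactions of -0.74 ± 0.16 and 0.65 ± 0.05 with water, against 0.51 ± 0.16 and 1.71 ± 0.05 with IFN. LAMP3 had 3.08 ± 0.11 with water, against 1.44 ± 0.11 with IFN. With R5020 and water both CYP genes were lower in T47D-co, with differences of -2.81 and -0.76, as were 8 of the 9 aryl hydrocarbon receptor pathway genes tested, and TIPARP was the 1 that was higher.

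Median line differences varied along the chromosomes. In 149 windows of 20 Mb on hg19, each with at least 30 genes that reached 50 scaled fragments in 1 R5020 group, the median line difference with R5020 ran from -1.10 to 0.768. It exceeded 0.3 in size in 36 windows, and 35 of these had the same sign with EtOH. Across windows the medians with R5020 and EtOH correlated at Pearson's r = 0.928 and Spearman's rho = 0.874, a description over windows of the same 12 libraries. The lowest was on chromosome 3 from 60 to 80 Mb, with -1.10 with R5020 and -1.0 with EtOH over 44 genes, 13.6% of them higher in T47D-co. Chromosome 16 changed sign along its length, with medians near the short-arm end of 0.68 and 0.64 with R5020 in the windows from 0 to 40 Mb and of -0.46 and -0.45 from 40 to 80 Mb. The median interaction per window stayed between -0.29 and 0.255. What sets these medians was not tested.

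**Figure D5:**
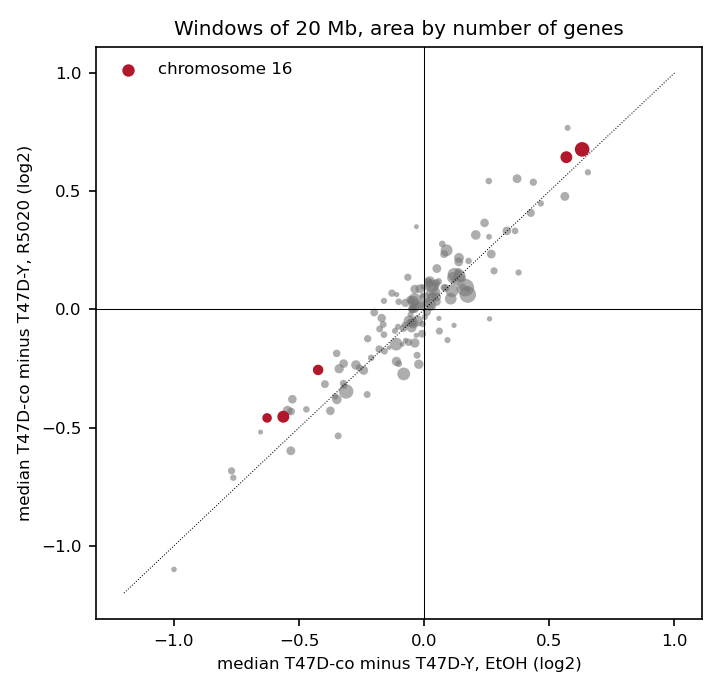
Median line difference (T47D-co minus T47D-Y, log2) with R5020 (vertical axis) against that with EtOH (horizontal axis) in 149 windows of 20 Mb, with point area by the number of genes and chromosome 16 in red. The points follow the dotted line of equal medians (Pearson's r = 0.928), from -1.10 to 0.768 with R5020.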

How the data were processed

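Total RNA extracted with Trizol was sequenced in 24 libraries on an Illumina MiSeq, per the labels' protocols, and TopHat2 2.0.12, Cufflinks 2.2.1 and GRCh37 (hg19) are named in the submitters' processing notes. The deposited values are a signal per gene and library whose unit is not given in the sources used here. Read from the numbers, 97.7 to 99.1% of a library's values lay within 0.05 of a multiple of its own step (0.637 to 1.36) where a gene had its locus to itself, and 60.1 to 63.4% over all genes, so the authors' values were taken as estimated fragments divided by a size factor. These factors had been set in 4 blocks of 6 libraries (line by IFN). The values were multiplied back and divided by factors from 1 median-of-ratios estimate across the 24 libraries, on 14201 entries averaging at least 50 fragments. No count test was run, as most values at shared loci were not whole.

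The 20159 entries that reached 10 scaled fragments in 3 or more libraries were fitted as log2(value + 1) with limma 3.58.1 in R 4.3.3, 8 group means, variance trend, 16 residual and 8.05 prior degrees of freedom. The fit was checked on simulated whole counts with few changed entries, balanced in direction and in a single group. That check cannot speak to the scaling or to false calls where most entries differ, as here. Tables were joined in Python 3.11.15. Of 25541 entries, 12589 stood alone at their locus, and 28 under repeated symbols were left out. Locus positions are given 1-based, with 1 added to the file's starts. Members and lists were chosen with earlier results of these data known. Named genes are the 10 largest rises and falls with R5020, up to 6 per class and direction, up to 4 per list and the 16 tested of 17 fixed genes, and several list members were named after their values were seen. Some genes under that rule are not reported here. Of 37 named genes that share a locus, the locus sum is printed for the 6 whose difference or interaction it moved by over 0.5 (log2), and for some others. P-values measure the spread between replicates that the series' design text calls biologic triplicates.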

Additional observations from a re-analysis of the deposited data

Results flagged for a closer look

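Line differences themselves differed between R5020 and EtOH in 8989 entries, by limma's test of the interaction with Benjamini-Hochberg adjustment, in libraries given water. The interaction in libraries given water differed from that in libraries given IFN in 12 entries by the same kind of test. Among them, the interaction with water minus that with IFN was -1.25 for CYP1A1 and -1.07 for CYP1B1, and 1.64 for LAMP3, on the log2 scale.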

How the results depend on the processing

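Counts over all tested entries stayed within 1.5 times their reported value on the deposited scale, with quantile or upper-quartile scaling, added values of 10 or 0.5, no filter or one of 50 scaled fragments, the 12 water libraries alone, no variance trend, voom weights and with any 1 water library left out. Restricted to the 10091 entries alone at their locus, 7113 line differences with R5020 were called (3279 higher, 3834 lower, 2906 at least 2-fold), 6505 with EtOH and 4523 interactions, with 1084 opened, 1285 widened, 745 narrowed, 664 closed, 714 reversed and 2596 kept, since fewer entries were tested. Without the 4 libraries that stand apart 883 were narrowed, in a fit that leaves 1 T47D-Y library with R5020. Among list counts, lower receptor and coregulator genes were 6 as reported, 11 on the deposited scale and 10 under quantile normalization, and without the 4 libraries the lower genes were 3 instead of 5 for the EGF receptor family and for the progestin targets. The fit with the replicate block gave 13792 line differences with R5020 and 8975 interactions. Same-numbered libraries deviated together in 5 of 18 pairs (correlations from -0.33 to 0.30), so the numbers were not taken as pairs. For single genes named in the text, the line difference with R5020, the interaction or both were rechecked. Their differences with EtOH and their classes were not. Rechecked calls changed for STAT5A, called on the deposited scale, TNFSF10 and ISG15, as given above, and the cause was not tested. Leaving out any 1 of the 12 water libraries changed no rechecked call of a named gene. Depth of 15542620 to 33607481 fragments limits genes near 0, whose log2 values depend on the added 1.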
